A study of Mus musculus with 11 samples.

Results

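The ectodysplasin pathway and the related receptor TROY were followed through 6 genes in sorted mouse pituitary cells. The genes were chosen by name: the ligand gene Eda, the receptor genes Edar, Eda2r and Tnfrsf19 (TROY), the adaptor gene Edaradd and the signal transducer gene Traf6. All 6 were found among the 56941 genes of the count table. The study compared APC-mutant cells, of which 5 libraries were analysed, with wildtype cells in 6 libraries, all from pituitary. APC is a scaffold of the complex that degrades beta-catenin. The allele, the driver of the mutation, the age of the animals and the sorting gate are not given in the sources used here, nor is the meaning of Lef1 in the mutant titles. Replicate numbers are those of the titles, 1, 2, 4, 5 and 6 for APC-mutant and 1 to 6 for wildtype. Whether libraries came from separate animals is not stated, so p-values measure the spread between libraries, which may be technical.

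Ectodysplasin is a membrane-bound ligand of the tumour necrosis factor (TNF) family that is cleaved and released. Its A1 isoform binds EDAR and its A2 isoform binds EDA2R. EDAR joins the adaptor EDARADD through death domains, and the signal passes through TRAF6 and kinases to the transcription factor NF-kappaB. In the mouse embryo this route is known for its part in hair placodes and in the enamel knots of teeth, and its loss causes hypohidrotic ectodermal dysplasia in people. TROY is a relative of EDAR without a death domain, found in skin, hair follicles and brain, and has been reported as a beta-catenin-responsive gene in other tissues. Adamantinomatous craniopharyngioma, the pituitary-region tumour named in the study's title, contains epithelium that resembles tooth-forming epithelium.

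The receptor and adaptor genes Edar, Tnfrsf19 and Edaradd were the members that changed most, and the starts of these genes are shown here because they rose together. Each window runs from 250 bases before to 50 bases after the annotated start, from RefSeq on GRCm38.p6, and is written along the gene's own strand. Coordinates of the counted genes given further on are on GRCm39 and are not comparable with these. Windows were found for all 6 genes, with 7 windows in total because Tnfrsf19 has a pair of them. Capitals mark a TCF/LEF core match, searched as CTTTGAA or CTTTGAT on both strands.

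Edar, chr10:58675647-58675946, minus strand: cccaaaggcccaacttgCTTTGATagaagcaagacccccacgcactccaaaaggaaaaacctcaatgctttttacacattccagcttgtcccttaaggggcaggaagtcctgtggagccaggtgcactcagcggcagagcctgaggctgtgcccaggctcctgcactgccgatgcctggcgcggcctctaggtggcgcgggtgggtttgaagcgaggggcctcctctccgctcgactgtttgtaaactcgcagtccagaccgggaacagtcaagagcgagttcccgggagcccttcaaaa

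Tnfrsf19, inner start, chr14:61037938-61038237, minus strand: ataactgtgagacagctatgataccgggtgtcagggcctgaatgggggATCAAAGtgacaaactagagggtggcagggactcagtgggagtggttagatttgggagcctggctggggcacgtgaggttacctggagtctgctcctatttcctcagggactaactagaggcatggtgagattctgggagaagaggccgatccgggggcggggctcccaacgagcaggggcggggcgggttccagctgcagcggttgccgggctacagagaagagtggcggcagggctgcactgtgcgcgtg

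Edaradd, chr13:12520401-12520700, minus strand: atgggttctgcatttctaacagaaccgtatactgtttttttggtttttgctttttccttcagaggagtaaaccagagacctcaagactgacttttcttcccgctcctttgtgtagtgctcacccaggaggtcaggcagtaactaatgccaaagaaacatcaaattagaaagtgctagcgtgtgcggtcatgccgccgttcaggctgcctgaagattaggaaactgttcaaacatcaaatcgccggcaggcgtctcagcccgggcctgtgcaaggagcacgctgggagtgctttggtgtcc

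The match in the Edar window was CTTTGAT, beginning 233 bases before the start. That in the Tnfrsf19 window was ATCAAAG, the same core on the opposite strand, beginning 202 bases before the start. The Edaradd window, the outer Tnfrsf19 window and the windows of Eda, Eda2r and Traf6 held no such letters. The TCF/LEF core was present in 8.65% of all 32851 promoter windows of this length in the RefSeq table. An NF-kappaB pattern, GGGA followed by any 2 bases and then TTCC or TCCC on either strand, was in none of the 7 windows and in 2.12% of all windows. These matches describe letters in a window and were not tested as binding sites.

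Some facts of the whole series bear on every value. Total counts ran from 15740857 to 27280761 per library. With edgeR's quasi-likelihood test, 59.2% of the 20622 tested genes differed between genotypes at an adjusted p under 0.05, 30.7% higher and 28.5% lower in APC-mutant cells. In 23.0% of tested genes every mutant library lay above every wildtype library. Apc stood at 37.8 to 45.6 CPM (counts scaled to the TMM-normalised library size) in mutant and 39.3 to 47.4 in wildtype libraries, a level that does not check the labels because counts are summed over the whole gene. Lef1 stood at 71.8 to 133.5 against 6.42 to 17.9 CPM. Although the wildtype cells are described as stem cells, 12 markers of hormone-producing cells summed to 59025 to 94084 CPM in wildtype libraries and to 166 to 1478 in mutant ones. The 10 stem cell markers summed to 1373 to 2026 and 874 to 1211 CPM. All 10 endothelial markers, with sums of 4388 to 6725 CPM in mutant and 17.1 to 105.4 in wildtype libraries, all 10 macrophage markers (174 to 1487 against 21.9 to 66.4), all 10 mesenchyme and pericyte markers (771 to 3398 against 124 to 283) and all 7 erythroid markers found (2080 to 3985 against 1.25 to 35.3) were higher in mutant libraries. So were 8 of 9 tested markers of stratified and dental epithelium, with sums of 427 to 752.5 CPM in mutant and 213 to 336 in wildtype libraries. The 10 posterior lobe and glial markers summed to 484 and 561 CPM in wildtype replicates 1 and 5. They summed to 75.5 to 151 CPM in the other wildtype libraries and to 77.7 to 161 in mutant ones. The part of any of these cell types in the results for the 6 genes was not tested. A change in the number of cells of a type and a change in RNA per cell cannot be told apart in bulk libraries. By their mean Spearman correlation with libraries of the same genotype, the least alike were APC-mutant replicate 5 (0.972, others 0.977 to 0.982) and wildtype replicates 2 and 5 (0.965 and 0.966, others 0.969 to 0.973). All mutant libraries share a name prefix that no wildtype library has, so a batch tied to it and the genotype cannot be told apart.

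In APC-mutant cells 4 of the 6 genes were higher, namely Edar, Tnfrsf19, Edaradd and Traf6, beside 30.7% of all tested genes. All 6 fold changes were above 0. Eda and Eda2r did not pass the test. The median log2 fold change (APC-mutant minus wildtype) of the 6 was 1.84, where that of all tested genes was 0.02. For Edar, Tnfrsf19 and Edaradd, 3 of the 6, every mutant library lay above every wildtype library, beside 23.0% of all tested genes. All 6 passed the filter on low counts, Edaradd and Eda2r only through their mutant counts, so their direction was not free. The counts and the median given above include both. Of the other 4 genes, 3 were higher, namely Edar, Tnfrsf19 and Traf6. Without APC-mutant replicate 5 and wildtype replicates 2 and 5, Edar (3.86), Tnfrsf19 (2.65), Edaradd (2.99) and Traf6 (0.56) were still called.

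**Figure D1:**
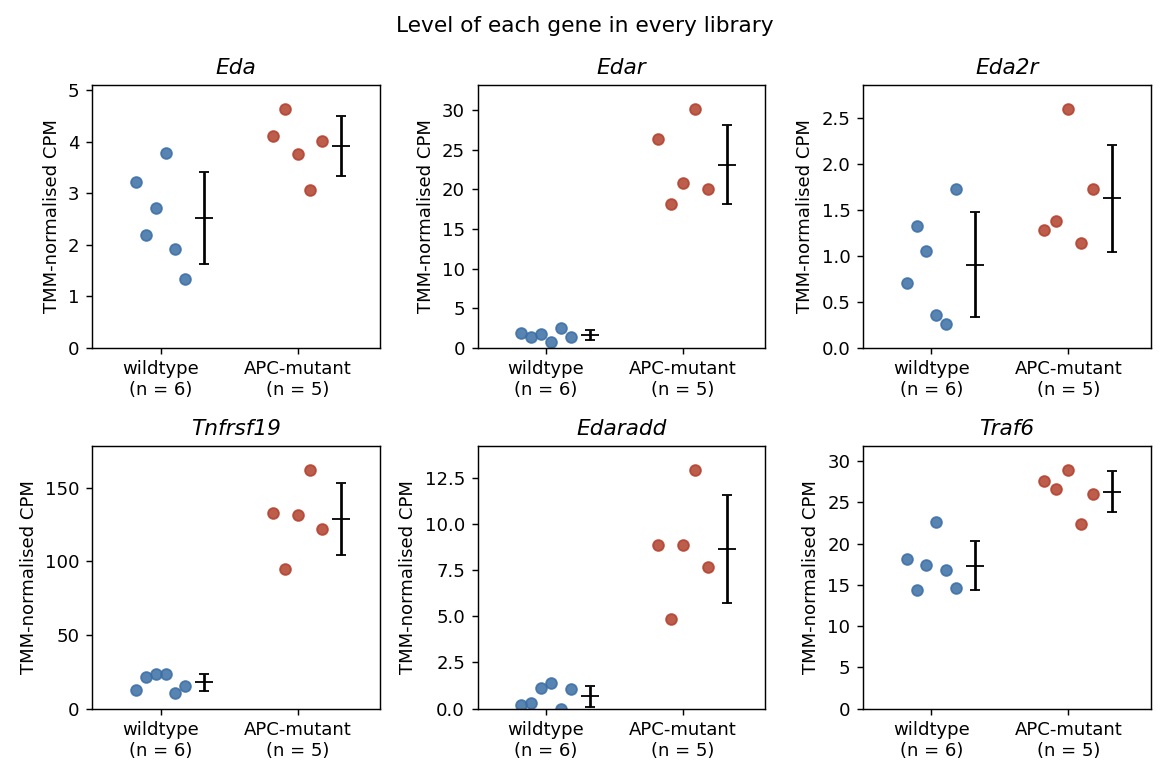
TMM-normalised CPM (vertical axes, linear and starting at 0) of the 6 genes in each library. Points are libraries, 6 wildtype and 5 APC-mutant, and bars beside them are the mean ± SD. The groups are separate for Edar, Tnfrsf19 and Edaradd and overlap for Eda, Eda2r and Traf6.

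The ligand gene Eda (ENSMUSG00000059327.10, chromosome X, 99019212 to 99444368, plus strand) was low in both genotypes. APC-mutant replicates 1, 2, 4, 5 and 6 held 4.10, 4.63, 3.76, 3.05 and 4.01 CPM, from 68 to 91 counts. In wildtype libraries the lowest, median and highest levels were 1.33, 2.45 and 3.78 CPM, from 27 to 64 counts. The mutant values were mostly the higher ones, but the groups overlapped, with wildtype replicate 4 at 3.78 above mutant replicates 4 and 5. The log2 fold change was 0.63 ± 0.27 (SE), which missed the threshold in edgeR's test (adjusted p = 0.0587), and its approximate interval, from the SE, spans 0.10 to 1.17. Against the ROSAJC wildtype libraries alone, so named by their prefix, it was 0.36 (adjusted p = 0.236), and against the ROSAE libraries alone 1.28 (adjusted p = 0.0113). The call also appeared without APC-mutant replicate 5 (0.71, adjusted p = 0.0498), without wildtype replicate 4 (0.78, adjusted p = 0.0243) and with limma voom (0.70, adjusted p = 0.0320). Counts are summed over the gene, so the A1 and A2 isoforms cannot be told apart.

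Edar, the receptor for the A1 isoform (ENSMUSG00000003227.5, chromosome 10, 58436611 to 58511476, minus strand), rose along with its adaptor gene. It stood at 26.3, 18.2, 20.8, 30.2 and 20.04 CPM in APC-mutant replicates 1, 2, 4, 5 and 6. The lowest, median and highest wildtype values were 0.720, 1.56 and 2.54 CPM, from 12 to 49 counts per library. The lowest mutant library lay far above the highest wildtype library. The mean went from 1.60 ± 0.621 (SD, n = 6) to 23.1 ± 4.98 CPM (SD, n = 5), a log2 fold change of 3.85 ± 0.27 (SE) or 14.4-fold, with an adjusted p of 2.96e-08 in edgeR's test. It was 3.97 against the ROSAJC and 3.59 against the ROSAE libraries. Of all tested genes, 1030 (4.99%) had a larger log2 fold change.

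Eda2r, the receptor for the A2 isoform, encoded on chromosome X like its ligand (ENSMUSG00000034457.11, 96377446 to 96420822, minus strand), was the lowest of the 3 receptor genes in both genotypes. Mutant replicates 1, 2, 4, 5 and 6 held 24, 27, 47, 30 and 34 counts, or 1.28, 1.38, 2.60, 1.14 and 1.73 CPM. Wildtype libraries held 5 to 35 counts, with a lowest, median and highest level of 0.259, 0.879 and 1.72 CPM. Mutant replicate 4 and wildtype replicate 6 were the highest of their groups, and the ranges overlapped. The log2 fold change of 0.83 ± 0.45 (SE) did not pass (adjusted p = 0.132), and its approximate interval spans -0.06 to 1.71. The fold change of Edar lies outside that span.

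Because Eda and Eda2r are X-linked, the sex of the libraries was looked at through 4 Y-linked genes. Their summed level was 219.9 to 253.4 CPM in APC-mutant replicates 1, 2 and 6 and 99.5 to 122.1 CPM in wildtype replicates 2 and 4, and it was at most 2.96 CPM in the other libraries. Libraries with and without this signal were present in both genotypes. With the Y-linked level as a covariate the log2 fold change was 0.53 for Eda (adjusted p = 0.115) and 0.90 for Eda2r (adjusted p = 0.131), so neither call changed.

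Tnfrsf19, encoding TROY (ENSMUSG00000060548.14, chromosome 14, 61201324 to 61283939, minus strand), was the most abundant of the 6. It reached 132.8, 94.5, 131.2, 162.2 and 122.1 CPM in APC-mutant replicates 1, 2, 4, 5 and 6. Wildtype cells already carried it, with a lowest, median and highest level of 10.7, 18.2 and 23.7 CPM. No mutant library came near the wildtype range. Its mean rose from 17.9 ± 5.69 (SD, n = 6) to 128.6 ± 24.3 CPM (SD, n = 5), 2.85 ± 0.22 log2 units (SE) or 7.21-fold, with an adjusted p of 6.49e-08 in edgeR's test. The value was 2.62 against the ROSAJC and 3.32 against the ROSAE libraries.

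Edaradd, the adaptor that EDAR needs for signalling (ENSMUSG00000095105.3, chromosome 13, 12487513 to 12535319, minus strand), was near the detection limit in wildtype cells. Wildtype counts per library were 4, 8, 17, 23, 0 and 21 in replicates 1 to 6, with a median of 0.668 and a highest value of 1.38 CPM. The 0 in wildtype replicate 5 allows up to 3 counts, or 0.156 CPM, and such limits cover counting error only. Mutant replicates 1, 2, 4, 5 and 6 stood at 8.84, 4.84, 8.85, 12.9 and 7.66 CPM, all above the wildtype range. The log2 fold change was 3.71 ± 0.59 (SE) with an adjusted p of 9.34e-05 in edgeR's test, and it was 3.52 against the ROSAJC and 4.03 against the ROSAE libraries. The mean rose from 0.673 ± 0.574 (SD, n = 6) to 8.62 ± 2.91 CPM (SD, n = 5).

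Traf6, a ubiquitin ligase shared by many receptors (ENSMUSG00000027164.9, chromosome 2, 101508774 to 101532014, plus strand), rose the least of the called genes. Mutant replicates 1, 2, 4, 5 and 6 held 27.6, 26.6, 29.0, 22.4 and 26.0 CPM. The lowest, median and highest wildtype levels were 14.4, 17.05 and 22.6 CPM. The groups touched in a single place, where wildtype replicate 4 at 22.6 stood just above mutant replicate 5 at 22.4. The log2 fold change of 0.60 ± 0.14 (SE), or 1.52-fold, passed edgeR's test (adjusted p = 0.00174), with 0.50 against the ROSAJC and 0.76 against the ROSAE libraries. None of the 6 genes shares exonic bases with another annotated gene in the table.

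To compare genes with each other, counts were divided by exonic length and scaled to the same total in each library (TPM). In APC-mutant cells the order was Tnfrsf19 (64.03 ± 11.97 TPM, SD, n = 5), Edar (15.0 ± 3.22), Traf6 (7.89 ± 0.886), Edaradd (3.05 ± 1.02), Eda (1.35 ± 0.210) and Eda2r (0.653 ± 0.247). Each gene was above the next in all 5 libraries, and the ranges overlapped for Eda and Eda2r alone. In wildtype cells the order was Tnfrsf19 (7.54 ± 2.13 TPM, SD, n = 6), Traf6 (4.43 ± 0.717), Edar (0.894 ± 0.369), Eda (0.741 ± 0.249), Eda2r (0.310 ± 0.201) and Edaradd (0.200 ± 0.169). There the only neighbours with separate ranges were Traf6 and Edar. Tnfrsf19 and Traf6 overlapped in range, but Tnfrsf19 was the higher in all 6 libraries. Edar thus stood below Traf6 in every wildtype library and above it in every mutant library. Its ratio to Eda, per length, was 7.36 to 18.6 in mutant and 0.357 to 2.49 in wildtype libraries.

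**Figure D2:**
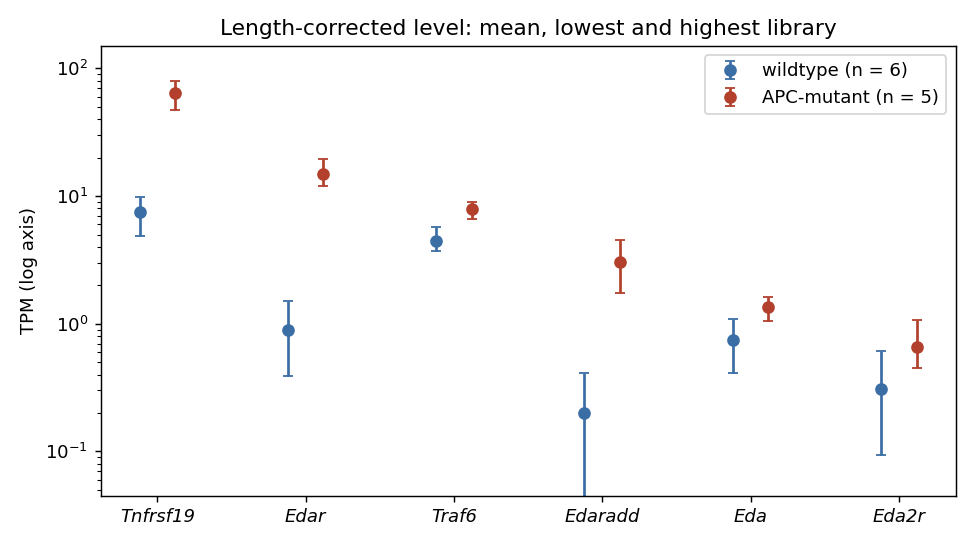
Length-corrected level in TPM (log axis) of the 6 genes in wildtype (blue) and APC-mutant (red) cells. Points are means and bars reach from the lowest to the highest library. The lower bar of wildtype Edaradd leaves the axis because wildtype replicate 5 had no count. Edar and Traf6 change places between the genotypes.

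Whether the genes differed in how much they changed was tested on the log2 ratio of their counts in each library, with an exact two-sided permutation test over the 11 libraries and adjustment over all 15 gene pairs. This test was added after the data were seen, and the smallest p it can give is 0.00433. The difference passed for 9 pairs, each of which set Edar, Edaradd or Tnfrsf19 against Eda, Eda2r or Traf6. Edaradd and Eda2r passed the filter on low counts only through their mutant counts, so pairs with either were not free. The passing pairs without them set Edar or Tnfrsf19 against Eda or Traf6. The ratio of Edar to Eda rose by 3.21 ± 0.44 log2 units (SE, adjusted p = 0.0108 in the exact test), with every mutant library above every wildtype library. That of Edar to Eda2r rose by 2.87 ± 0.59 (exact test, adjusted p = 0.0162), with the libraries overlapping. Between Edar and Tnfrsf19 the change of 1.01 ± 0.42 did not pass (exact test, adjusted p = 0.0826). The receptor Edar and its adaptor Edaradd differed in their change by -0.52 ± 1.10 (SE, exact test, adjusted p = 0.775), an error too wide to call their rises alike. Eda against Traf6 gave 0.08 ± 0.17 (exact test, adjusted p = 0.751).

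**Figure D3:**
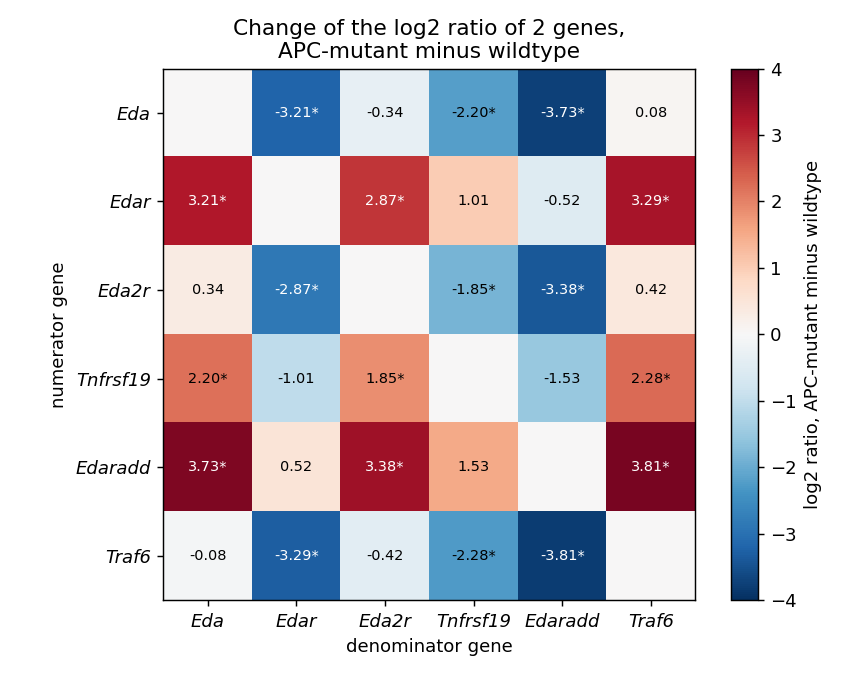
Change of the log2 count ratio of each pair of genes, APC-mutant minus wildtype, with the numerator gene in rows and the denominator gene in columns. Stars mark an adjusted p under 0.05 in the exact permutation test. The starred values join Edar, Tnfrsf19 or Edaradd with Eda, Eda2r or Traf6. Edaradd and Eda2r passed the filter on low counts only through their mutant counts.

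Within the mutant group, Edar and Tnfrsf19 followed the same order over the libraries. Replicate 5 was the highest and replicate 2 the lowest for Edar, Tnfrsf19 and Edaradd, at 1.31, 1.26 and 1.50 times the mutant mean in replicate 5 and 0.787, 0.735 and 0.561 times in replicate 2. Eda ran the other way, at 0.780 times its mean in replicate 5 and 1.19 times in replicate 2. The sum of 10 stratified and dental epithelium markers was also highest in replicate 5 (752.5 CPM) and lowest in replicate 2 (427 CPM). Not all of these markers kept that order. Trp63, Dsc3 and Dsg3 were highest in replicate 1, and Krt5 and Krt14 were lowest in replicate 4. Endothelial and hormone-producing cell sums were also highest in replicate 5 (6725 and 1478 CPM), but lowest in replicate 1 (4388 and 166 CPM). Stem cell and erythroid sums were highest in replicate 1 (1211 and 3985 CPM). Macrophage markers were lowest in replicate 5 (174 CPM) and highest in replicate 2 (1487 CPM), and the mesenchyme and pericyte sum did the same (771 and 3398 CPM). Within that sum Rgs5 and Cspg4 were highest in replicate 1 and Pdgfrb and Acta2 in replicate 4. Rgs5 was lowest in replicate 2 (18.8 CPM). The other markers of that list kept the order of the sum. These are orders over 5 libraries, and the part of those cell types in the levels of the 6 genes was not tested.

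**Figure D4:**
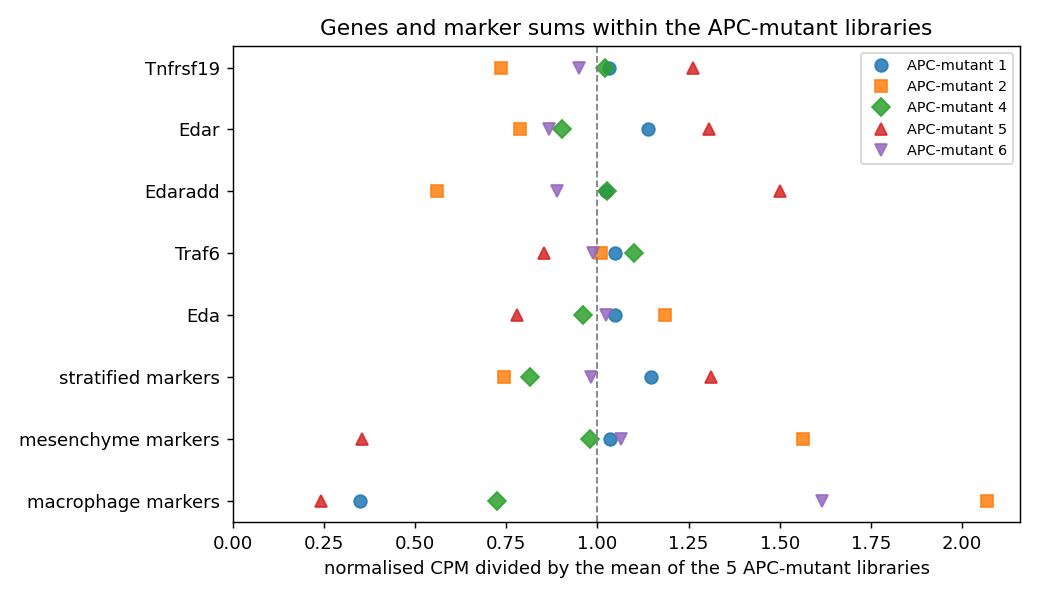
Level in each APC-mutant library divided by the mean of the 5 (horizontal axis) for 5 of the genes and for summed marker lists. Symbols are libraries. Replicate 5 is highest for Tnfrsf19, Edar, Edaradd and the stratified markers and lowest for the mesenchyme and macrophage sums, and replicate 2 is at the opposite end.

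Genes whose log2 level over the 11 libraries was most like that of each member were listed as a description, among those with a mean of at least 5 CPM. For Edar these were Syk, a tyrosine kinase gene (Pearson r = 0.992), and Fgfrl1 (r = 0.991). Tnfrsf19 was closest to Adgrg3 (r = 0.995) and Trim16 (r = 0.994), and Edaradd to Grhl1, a grainyhead-like factor gene, and to the WNT secretion gene Wls (both r = 0.986). All points share the genotype split: 926 genes exceeded r = 0.95 with Edar and 783 with Tnfrsf19. After genotype means were removed, r with Edar was 0.87 for Syk and 0.72 for Fgfrl1. With Tnfrsf19 it was 0.94 for Adgrg3 and 0.90 for Trim16. The genes had been picked for their likeness over these same libraries. Traf6 was closest to Stam2 (r = 0.973) and Ncoa3 (r = 0.962). For Eda the nearest were Angptl2 (r = 0.931) and Rxra (r = 0.908), and for Eda2r Armc7 (r = 0.909) and Slbp (r = 0.875).

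Further genes of the route were read from lists. Of 17 tested genes of the relay from the adaptors to NF-kappaB, 8 rose, 3 fell and 6 did not pass, beside 30.7% and 28.5% of all tested genes, with a median of 0.30 against 0.02. Those that rose were the 5 NF-kappaB subunit genes (Nfkb1, Rela, Relb, Rel and Nfkb2) and 3 inhibitors of the route that NF-kappaB itself induces (Nfkbia, Nfkbie and Tnfaip3). Nfkb1 went from 9.79 ± 4.49 to 55.02 ± 7.34 CPM (log2 fold change 2.49 ± 0.24 SE, adjusted p = 7.68e-07), and Nfkbia from 294 ± 62.2 to 795 ± 185 CPM (1.44 ± 0.18 SE). Of the exonic bases of Nfkb2 20.5% overlap another gene. Map3k7, encoding TAK1, stood at -0.06 and the IKK scaffold gene Ikbkg at 0.01, neither with a call. The IKK kinase gene Ikbkb, at 0.30, had no call either (adjusted p = 0.0583), but gained one with limma voom, without mutant replicate 1 and without wildtype replicate 4. The other IKK kinase gene, Chuk, fell by 0.53 and Tab3, encoding a TAK1-binding protein, fell by 1.46 (10.2 ± 1.42 against 28.0 ± 6.80 CPM). Cyld, a deubiquitinase that dampens the route, fell by 0.38. The direction turned for Ikbkg in 9 of 22 alternatives and for Map3k7 in 1, against the ROSAE libraries. Tab1 (-0.33) and Tab2 (-0.05), encoding other TAK1-binding proteins, had no call and changed call or sign in 4 and 6 of 22. Their ranges were -0.51 to 0.02 and -0.35 to 0.09. Of the called genes, Nfkbie lost its call against the ROSAE libraries and Cyld with the replicate block. Tnfaip3 was 193.6 CPM in mutant replicate 2, where macrophage markers were highest, and 41.2 CPM in replicate 5, where they were lowest.

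Among the other TRAF genes 5 of 6 rose and Traf3 fell by 0.57, beside 30.7% and 28.5% of all tested genes, with a median of 0.78 against 0.02. Traf5 rose from 2.25 ± 0.913 to 13.9 ± 1.44 CPM (2.62 ± 0.25 SE, adjusted p = 5.68e-07), Traf4 by 0.86 and Traf7 by 0.71. Traf1 (1.01) and Traf2 (0.37) lost their calls against the ROSAJC libraries alone and with the replicate block, which left 3 rises. The call of Traf1 also ended when mutant replicate 2, 5 or 6 or wildtype replicate 2, 4, 5 or 6 was left out, with values of 0.67 to 1.92 over all alternatives. That of Traf2 ended when wildtype replicate 1, 3 or 5 was left out or libraries were scaled by totals, with 0.30 to 0.47. Traf6, at 0.60, lies inside the range of these genes.

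Genes reported to respond to ectodysplasin in mouse skin or tooth rose in all 10 that were tested, beside 30.7% of all tested genes, with a median of 4.04 against 0.02. Another 4 (Cxcl11, Foxi3, Lta and Ltb) were too low for the test. Dkk4, Shh, Madcam1 and Wnt10b held 9, 22, 27 and 30 counts in total over the 6 wildtype libraries and passed the filter only through their mutant counts, which fixed their direction. The count of 10 and the median include these 4 genes. The other 6 tested genes reached the filter in the wildtype libraries alone, and all 6 rose. Their log2 fold changes were 5.59 (Wnt10a), 5.03 (Fgf20), 3.06 (Pthlh), 2.89 (Cxcl10), 1.87 (Ccn2) and 1.24 (Fst). Fgf20, a growth factor gene of dental and hair placodes, went from 5.58 ± 1.09 to 183 ± 51.6 CPM (5.03 ± 0.20 SE, adjusted p = 1.67e-10), and Wnt10a from 1.79 ± 1.34 to 88.3 ± 25.1 CPM (5.59 ± 0.41 SE). Of the exonic bases of Fgf20, 12% overlap another gene. Madcam1, a cell adhesion gene also known from vessels, went from 0.241 ± 0.177 to 14.7 ± 5.50 CPM (5.94 ± 0.46 SE). The mutant libraries also had higher endothelial markers, whose part in this value was not tested. Dkk4 and Fgf20 are also known as WNT targets.

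Most tested genes of the TNF receptor family rose with Edar and Tnfrsf19. Of 25 other receptor genes 20 were tested and 16 rose, beside 30.7% of all tested genes, with a median of 2.32 against 0.02. Of the 20, 6 (Tnfrsf9, Tnfrsf14, Ngfr, Tnfrsf11a, Tnfrsf26 and Tnfrsf25) passed the filter only through their mutant counts, so their direction was not free. The median includes them. Of the other 14, 11 rose. Tnfrsf12a stood at -0.32 without a call (adjusted p = 0.349), and 5 genes were too low to test. Over 22 alternatives Tnfrsf12a ranged from -0.53 to -0.01. It was called lower in 2, without wildtype replicate 2 and without APC-mutant replicate 5 and wildtype replicates 2 and 5. Tnfrsf18, Tnfrsf25 and Relt, also without a call, changed call or sign in 7 of 22, 5 of 21 and 1 of 22. Cd40 rose from 1.19 ± 0.735 to 68.05 ± 4.39 CPM (5.83 ± 0.33 SE, adjusted p = 3.53e-09), Tnfrsf22 by 3.64 ± 0.24 and Tnfrsf9 by 3.93 ± 0.30. By mean TPM Edar, Tnfrsf19 and Eda2r ranked 10, 4 and 24 of 28 receptor genes in mutant and 13, 4 and 19 in wildtype cells. Cd40 is a gene of antigen-presenting and endothelial cells, whose markers were higher in the same libraries, and their part was not tested. The call of Cd27 ended against the ROSAE libraries and without APC-mutant replicate 5 and wildtype replicates 2 and 5.

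Among TNF ligand genes other than Eda, 7 of 17 were tested and all 7 rose, beside 30.7% of all tested genes, with a median of 3.73 against 0.02, while 10 were too low to test. Tnfsf15, Tnfsf18 and Tnf passed the filter only through their mutant counts, which fixed their direction. The count of 7 and the median include these genes. The other 4 tested genes all rose, Tnfsf10 by 4.49, Tnfsf12 by 2.21, Tnfsf13 by 2.09 and Tnfsf9 by 0.99. The call of Tnfsf9 (0.99) ended against the ROSAE libraries. Tnfsf15 went from 0.240 ± 0.260 to 25.6 ± 8.67 CPM (6.83 ± 0.52 SE, adjusted p = 7.28e-08), Tnfsf10 from 1.29 ± 0.468 to 29.2 ± 4.08 CPM (4.49 ± 0.26 SE) and Tnfsf12 by 2.21 ± 0.26. Of the exonic bases of Tnfsf12, 48.3% overlap the joint gene Tnfsfm13. Eda, at 0.63, was the single tested ligand gene without a call, and its difference from the others was not tested. Of the genes tied to TROY, Lgr5, a receptor of stem cells that binds TROY, rose from 14.1 ± 3.20 to 30.3 ± 4.57 CPM (1.10 ± 0.17 SE, adjusted p = 6.01e-05). Rtn4r, encoding the Nogo receptor with which TROY forms a complex in neurons, rose by 1.26 ± 0.40 at a level of 1.05 ± 0.289 CPM, and its call ended against the ROSAJC libraries alone (0.89, adjusted p = 0.0558). It too passed the filter only through its mutant counts. Rtn4, Lingo1 and Mag did not pass (-0.24, -0.26 and -0.48), Omg was too low to test, and the median of the 5 tested was -0.24.

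**Figure D5:**
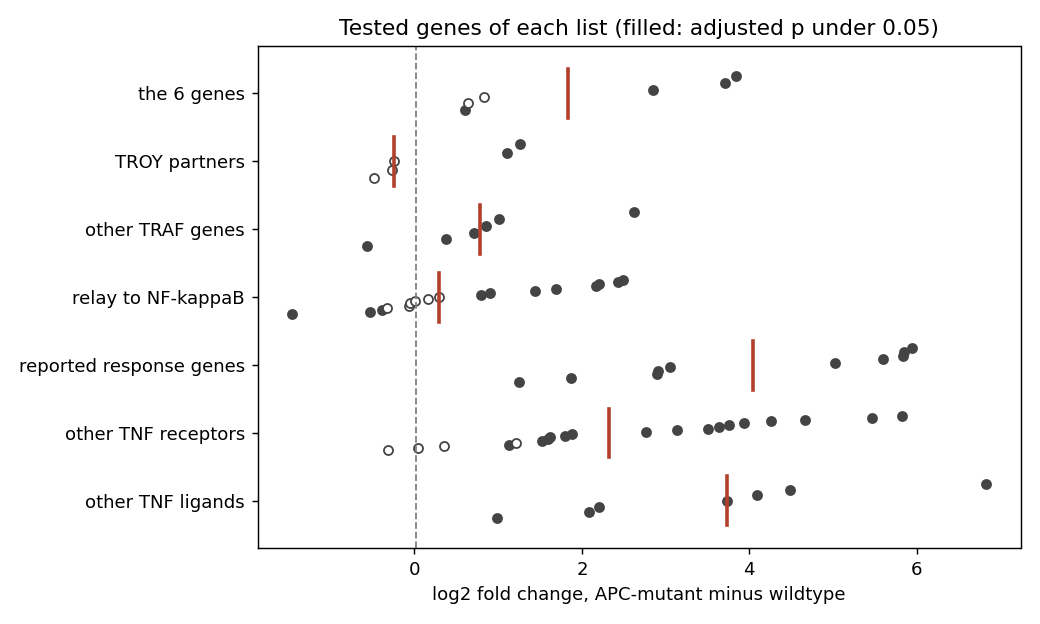
Log2 fold change, APC-mutant minus wildtype, of every tested gene in each list. Filled points passed the test, open points did not, red bars are list medians and the dashed line is the median of all tested genes at 0.02. The called receptor, ligand and response genes all lie to the right, while the relay list spreads over both sides. Some of the receptor, ligand and response genes passed the filter only through their mutant counts, so their direction was not free.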

How the data were processed

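Poly(A) RNA of sorted pituitary cells was amplified with a SMARTer kit and sequenced as read pairs, per the labels' protocols. The authors deposited raw counts of fragments for each gene, made with featureCounts 2.0.1 over GENCODE M33 on GRCm39, per the file headers, without a strand option and counting a pair for each gene it overlaps. Trim Galore 0.6.5, STAR 2.7.9a and DESeq2 are also named in the submitters' processing notes. A deposited length column, which holds bases and is of an other unit, gave TPM.

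Counts were filtered with filterByExpr, scaled by TMM and tested with edgeR 4.0.16 (glmQLFTest, R 4.3.3), with Benjamini-Hochberg adjustment over 20622 genes and a threshold of 0.05. Standard errors come from the log2 fold change and its F statistic. Voom used limma 3.58.1, and DESeq2 1.42.0 was an alternative. Ratios of genes used a pseudocount of 0.5 and SciPy 1.17.1. Symbols matched 91.2% of identifiers. Named list genes are the 3 of smallest p and up to 2 called against their list's direction. Further list genes in the text, and those of the closing observations, were picked with their values in view. Members and lists were chosen with earlier results of these data known. The fits were tested on simulated data with a single dispersion, where a small share of genes, all above the median level, was changed. That simulation does not check calls at low counts or with most genes changed.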

Additional observations from a re-analysis of the deposited data

Results flagged for a closer look

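Single libraries stood apart in 4 of the 54 groups of values examined with Dixon's test, where chance alone would mark about 5% of groups. None was a value of the 6 genes of the pathway. Fgf20 stood at 272 CPM in APC-mutant replicate 5, against 139 to 176 CPM in the other mutant libraries, the same library in which Edar, Tnfrsf19 and Edaradd were highest. Nfkb1 was 18.5 CPM in wildtype replicate 5, with 7.14 to 10.8 CPM in the other wildtype libraries. Tnfrsf22 was 10.2 CPM in APC-mutant replicate 1, below the 15.6 to 16.5 CPM of the others. Lef1 was 17.9 CPM in wildtype replicate 6 and 6.42 to 10.4 CPM in the rest.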

How the results depend on the processing

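Edar, Tnfrsf19, Edaradd and Traf6 kept their call and direction in all 22 alternatives each, with ranges of 3.59 to 4.01, 2.62 to 3.32, 2.99 to 4.51 and 0.50 to 0.76. Eda2r stayed without a call in all 22 (0.60 to 1.10). Eda gained a call in 4 of 22: with limma voom (0.70), against the ROSAE libraries alone (1.28), and without APC-mutant replicate 5 or wildtype replicate 4, with 0.50 to 0.78 when single libraries were left out. The cause was not tested. Called TNF ligand genes rose from 7 to 11 with no filter, since more genes were tested. Called TROY partners fell from 2 to 1 with the stricter filter (at least 1 CPM in 5 libraries), which removed Rtn4r, and to 1 against the ROSAJC libraries. Leaving out APC-mutant replicate 5 and wildtype replicates 2 and 5, added after the data were seen, kept 11 of 17 relay genes called. The replicate block (Edar 3.94, Edaradd 4.16) ended the calls of Traf1, Traf2 and Cyld among the list genes and of no member. Correlations of same-numbered mutant and wildtype libraries were between -0.15 and 0.05, which gives no sign of pairing but cannot exclude it. Leaving the 20 most abundant genes out of TPM raised wildtype Edar from 0.894 to 1.30 and Tnfrsf19 from 7.54 to 11.2. A pseudocount of 1 changed no pair call. Depth limits Eda2r and wildtype Edaradd, which had at most 47 and 23 counts per library.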

Other observations

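The osteoclast-differentiation arm of the TNF family was read after its values were seen. Tnfrsf11b, encoding the decoy receptor osteoprotegerin, rose from 5.14 ± 2.81 (SD, n = 6) to 69.6 ± 17.8 CPM (SD, n = 5), a log2 fold change of 3.76 ± 0.40 (SE, edgeR adjusted p = 1.96e-06). Tnfrsf11a, encoding RANK, rose from 0.867 ± 0.700 to 7.86 ± 4.67 CPM (3.13 ± 0.57 SE, edgeR adjusted p = 2.70e-04), and it passed the filter only through its mutant counts. Their ligand gene Tnfsf11 held 23 counts over the 5 mutant and 60 over the 6 wildtype libraries and was too low to be tested. The decoy receptor gene Tnfrsf23 rose by 2.77 ± 0.30 beside its neighbour in the family Tnfrsf22.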
